A study of Rattus norvegicus with 8 samples.

Results

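The genes described here are 39 rat genes of the unfolded protein response and the integrated stress response, found by their symbols in a deposited table of exon reads. All 39 were in the table, all 39 had at least 10 exon reads in 2 libraries, and all 39 were tested. Of the 32258 features of the series, 12642 met the same minimum of reads. The cells were H9C2, an established line of rat heart-derived myoblasts. For 2 days they carried a transduced pDC316 vector with YFP alone (the YFP group) or YFP fused to PPARalpha. PPARalpha is a nuclear receptor that drives genes of fatty acid use. The fusion was wild type (WT), S280A (serine 280 replaced by alanine, described by the labels as phospho-resistant) or S280D (replaced by aspartate, described as phospho-mimicking). Every group therefore carried the vector and YFP, and the endogenous receptor of the cells was not removed. Each of the 4 groups had 2 libraries. Whether the 2 were grown as separate cultures is not stated in the labels, and each p-value therefore reflects only the spread between libraries, which may be technical.

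The endoplasmic reticulum (ER) folds secreted and membrane proteins. When unfolded protein accumulates, 3 sensors in its membrane respond: IRE1 (gene Ern1) splices the mRNA of Xbp1, PERK (Eif2ak3) phosphorylates the translation factor eIF2 alpha, and ATF6 is cut to release a transcription factor. Other kinases, which sense amino acid shortage, double-stranded RNA or haem shortage, phosphorylate the same factor. Translation of Atf4 mRNA then increases, and ATF4 drives genes of amino acid uptake and synthesis and of feedback. Heart muscle is known to use these pathways under pressure load and after loss of blood flow. The counts measure mRNA only, and they do not tell spliced from unspliced Xbp1.

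The libraries held 14018785 to 39526013 exon reads. Ppara stood at 74.4 and 59.5 CPM (read counts scaled to library size by the TMM method) in the YFP libraries. It was at 12382 and 24134 CPM with WT, 17400 and 13736 with S280A and 17911 and 17693 with S280D. The rise of Ppara thus matched the labels, but the counts do not tell which variant was delivered. Ppara was not called by edgeR between S280D and S280A (log2 fold change 0.19 ± 0.25 SE, adjusted p = 0.565), although both S280D libraries were above both S280A libraries. Against WT its estimates were -0.23 in S280A and -0.036 in S280D, without a call. Of the muscle and cardiac markers, Tnnt2 was present at 129 to 265 CPM and Gata4 at 6.01 to 10.7 CPM, and the list of 11 summed to 194 to 316 CPM, while Des, Myog, Myod1, Actc1, Myh6 and Myl7 were at most 1.33 CPM and Myf5 was at 0 in 7 of the 8 libraries. Mef2c, the second most abundant of the list, was at 32.8 and 39.5 CPM with YFP, 56.4 and 51.8 with WT, 30.1 and 19.7 with S280A and 68.7 and 57.0 with S280D, above every YFP and S280A library in all 4 WT and S280D libraries. The 4 mesenchymal markers (Vim, Acta2, Tagln, Col1a1) summed to 52730 and 54102 CPM with YFP, 35649 and 40130 with WT, 50287 and 61832 with S280A and 36594 and 40132 with S280D. The mesenchymal sums were thus lower in every WT and S280D library than in any YFP or S280A library, the same split of libraries as in many results below. The part of these markers and of Mef2c in those results was not tested. Endothelial and leukocyte markers summed to at most 1.25 CPM, with Ptprc at 0. Of the epithelial markers, Epcam and Cdh1 were at most 0.0725 CPM and Krt8 stood at 13.7 to 22.5 CPM.

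Compared per base of exon, the most abundant members were Calr, with a mean over the 8 libraries of 520 RPKM (reads scaled to exon length and library size, as the authors computed it), Atf4 with 502, Atf5 with 448 and Slc3a2 with 444 RPKM. The least abundant were the sensors Eif2ak3 (3.33 RPKM) and Ern1 (3.63 RPKM), the chaperone Dnajb9 (4.63 RPKM), Sdf2l1 (5.84 RPKM) and Slc7a11 (6.67 RPKM). For Pdia3 only 24.6% of the exon reads mapped to 1 place, against 78.2% for Mthfd2, 87.0% for Pdia6 and at least 91.9% for each other member, so the values of those 3 genes are uncertain.

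Most members that differed stood lower in the WT and S280D cells than in the YFP and S280A cells. Changes were tested with edgeR's quasi-likelihood test over 12407 genes, and a gene was called at a Benjamini-Hochberg adjusted p under 0.05; every adjusted p below comes from that test unless another is named. Between S280D and S280A, 4 members rose and 15 fell, where 39.3% of all genes tested were called in either direction, 21.3% higher and 18% lower. The members' share of falls was 38.5%, and their median log2 fold change was -0.25 against -0.014 over all genes tested. Between S280D and YFP, 3 members rose and 14 fell, with a background of 30.7% called (17.1% higher, 13.7% lower) and a member median of -0.23 against -0.022. The difference between WT and YFP comprised 2 members that rose and 5 that fell, a share of 17.9% beside a background of 19.6% (12.2% higher, 7.45% lower), with a member median of -0.17 against -0.0082. S280A and WT differed in 7 members that were higher in S280A and 4 that were lower, beside a background of 26% (10.1% higher, 15.9% lower), with a median of 0.16 against 0.013.

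The other 2 comparisons called no member. In S280A against YFP, 0.0403% of all genes were called. Before adjustment 4 members reached p under 0.05, beside 1439 of the 12407 genes tested. DESeq2 called 0 members there, beside 0.976% of all genes. In S280D against WT, 0.0403% of all genes were called as well. Before adjustment 1 member (Ddit3) reached p under 0.05, beside 606 of the 12407 genes tested. DESeq2 called 0 members there, beside 0.329% of all genes. The largest estimated difference between S280D and WT was that of Ddit3, -0.37 ± 0.14 on the log2 scale.

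**Figure D1:**
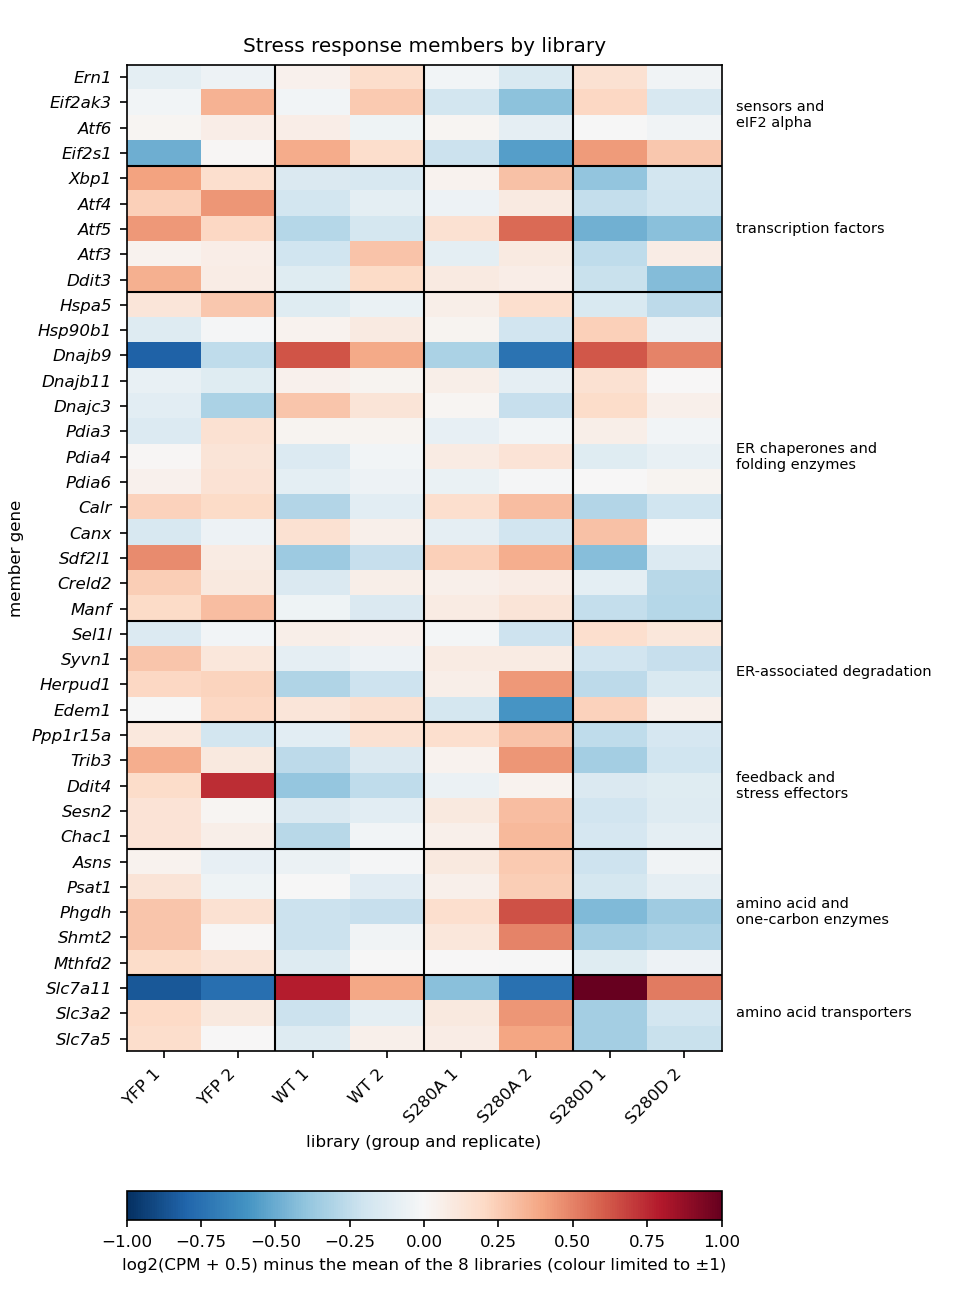
Each of the 39 members (rows, by role) in each of the 8 libraries (columns), as log2(CPM + 0.5) minus the gene's mean over the 8 libraries, with colours limited to ±1. Many rows are lower in the WT and S280D columns than in the YFP and S280A columns, while the rows of Slc7a11, Dnajb9, Eif2s1, Dnajc3, Canx and Sel1l show the opposite order in all 8 libraries.

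Over the 6 comparisons 22 members were called at least once and 17 were never called. S280D against S280A alone called 39.3% of all genes tested. The share of all genes called at least once was not counted, nor were the shared calls that follow. Atf5, Calr, Dnajb9, Herpud1 and Slc7a11 were called in all 4 comparisons that had calls. The 7 members called in WT against YFP were also called in S280D against YFP with the same sign, 2 comparisons that share the YFP libraries. The 11 called in S280A against WT were also called in S280D against S280A with the opposite sign, and these share the S280A libraries. In S280D against S280A the 2 groups did not overlap for 10 members higher and 24 lower, where 36.6% and 37.7% of all genes tested did not overlap. The counts higher and lower were 9 and 20 in WT against YFP (background 32% and 32.3%), 8 and 24 in S280D against YFP (33.9% and 35.7%), 21 and 11 in S280A against WT (34.6% and 35.2%), 3 and 10 in S280A against YFP (17.9% and 19.9%) and 3 and 11 in S280D against WT (19.4% and 21.2%).

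**Figure D2:**
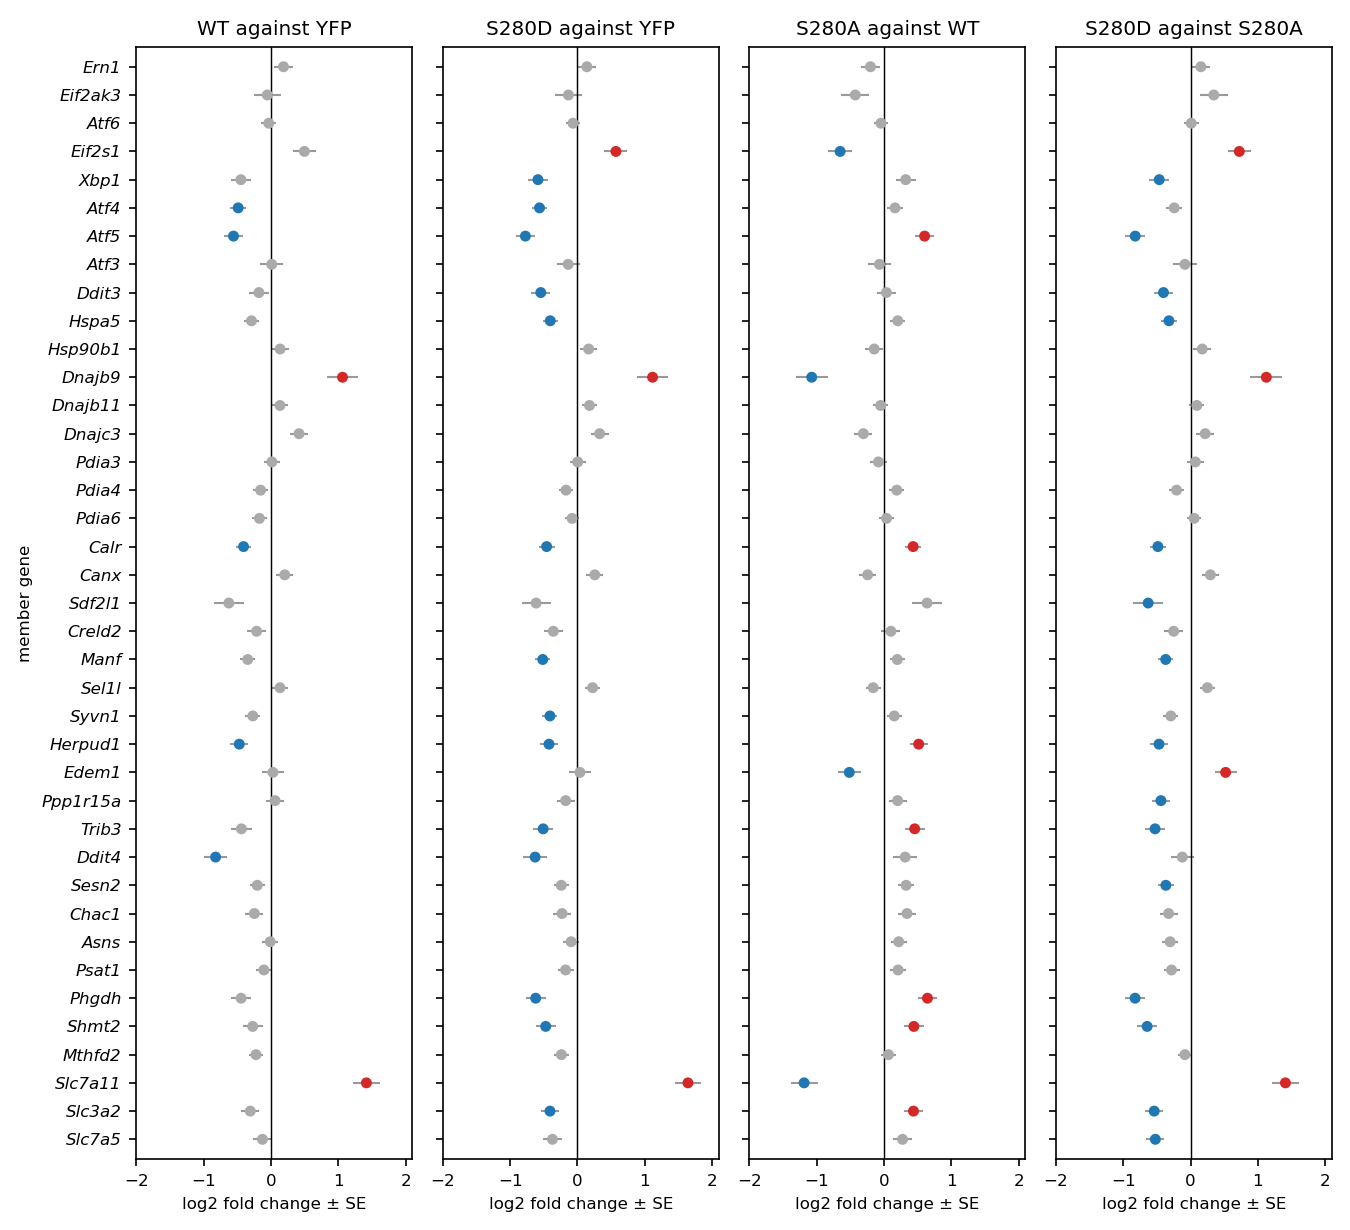
Log2 fold change of each member with its standard error (horizontal line) in the 4 comparisons with calls, with members called higher in red, called lower in blue and not called in grey. Slc7a11 lies farthest from 0 in each panel, at 1.42, 1.64, -1.19 and 1.41.

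Of the 54 calls, 6 were kept in each of the 8 fits that left out a library. The members lost calls together with the rest of the genes tested. Without WT replicate 1 WT against YFP called 1 member (1.28% of all genes) and S280A against WT 0 (0.0552% of all genes), and without S280D replicate 1 S280D against YFP called 2 (7.24%). The members called in S280D against S280A went from 19 to 3 without S280A replicate 2, where the share over all genes went from 39.3% to 9.78%, and to 4 without S280D replicate 1 (10.5%). By the lanes named in the column headers both YFP libraries were in one lane and both WT libraries in the other, so within those 4 libraries lane and group cannot be told apart; S280A and S280D each had 1 library in each lane, which let lane be fitted over all 8. With lane as a covariate WT against YFP called 0 members (0.0725% of all genes), S280D against YFP 4 (13.3%), S280A against WT 1 (8%) and S280D against S280A 13 (32.3%). The estimates of the 7 members called in WT against YFP kept their sign in that fit, at 1.55 for Slc7a11, 0.94 for Dnajb9, -0.79 for Ddit4, -0.43 for Atf4, -0.38 for Atf5, -0.38 for Calr and -0.34 for Herpud1.

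Of the sensors and eIF2 alpha (4 genes), 3 were never called and Eif2s1 was. Eif2s1 encodes eIF2 alpha itself, the subunit whose phosphorylation slows translation. It stood at 104 and 147 CPM with YFP, 190 and 166 with WT, 126 and 99.8 with S280A and 197 and 177 with S280D. All WT and S280D libraries were above all YFP and S280A libraries. Eif2s1 rose in S280D against S280A by 0.72 ± 0.17 on the log2 scale (adjusted p = 0.00886) and against YFP by 0.57 ± 0.17 (adjusted p = 0.0287), and it was lower in S280A than in WT (-0.65 ± 0.17, adjusted p = 0.0217). In WT against YFP its estimate was 0.50 ± 0.17 (adjusted p = 0.0624). Without YFP replicate 1 the S280D against YFP value was 0.34 and was not called.

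The kinase and nuclease IRE1 (Ern1) lay between 26.0 and 32.8 CPM in the 8 libraries, with S280D at 32.3 and 28.2 and S280A at 28.4 and 26.0. PERK (Eif2ak3) lay at 16.6 and 21.8 CPM with YFP, 16.6 and 20.4 with WT, 14.9 and 12.6 with S280A and 19.7 and 15.2 with S280D. Both S280A libraries were the lowest of the 8, and the estimate in S280A against YFP was -0.48 ± 0.21 (adjusted p = 0.41). Atf6 stood between 161 and 179 CPM, and its estimates lay between -0.08 and 0.01 over the 6 comparisons.

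Of the transcription factors (5 genes), 4 were called lower in S280D than in YFP, beside 13.7% of all genes tested. Atf3 was called nowhere. Atf5, a relative of Atf4 whose mRNA is also translated preferentially under eIF2 phosphorylation, was at 709 and 603 CPM with YFP, 430 and 462 with WT, 582 and 774 with S280A and 376 and 392 with S280D. The lowest YFP or S280A library was above the highest WT or S280D library. Atf5 fell by 0.82 ± 0.15 in S280D against S280A (adjusted p = 0.00277), by 0.77 ± 0.15 in S280D against YFP (adjusted p = 0.00405) and by 0.56 ± 0.15 in WT against YFP (adjusted p = 0.0245). It was 0.60 ± 0.15 higher in S280A than in WT (adjusted p = 0.0157). The call in S280D against S280A was kept with each of the 8 libraries left out in turn.

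Atf4, the central factor of the integrated stress response, was at 956 and 1101 CPM with YFP, 712 and 757 with WT, 782 and 864 with S280A and 687 and 706 with S280D. Both YFP libraries were the highest, and S280A lay between YFP and the other constructs. It fell by 0.49 ± 0.12 in WT (adjusted p = 0.0186) and by 0.56 ± 0.12 in S280D (adjusted p = 0.00625), both against YFP. In S280A against YFP the estimate was -0.32 ± 0.12 (adjusted p = 0.381), and in S280D against S280A it was -0.24 ± 0.12 (adjusted p = 0.123).

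Xbp1, the factor that IRE1 activates by splicing, stood at 48.7 and 41.4 CPM with YFP, 33.2 and 33.0 with WT, 37.6 and 45.2 with S280A and 27.8 and 32.3 with S280D. The YFP and S280A libraries were all above the WT and S280D libraries. Xbp1 fell in S280D by 0.59 ± 0.15 against YFP (adjusted p = 0.0135) and by 0.46 ± 0.15 against S280A (adjusted p = 0.0291). Ddit3, which encodes the cell-death factor CHOP, was at 246 and 203 CPM with YFP, 177 and 221 with WT, 205 and 202 with S280A and 166 and 143 with S280D. Its 2 S280D libraries were the lowest of the 8, and the WT libraries overlapped both YFP and S280A. Ddit3 fell in S280D by 0.54 ± 0.14 against YFP (adjusted p = 0.0166) and by 0.40 ± 0.14 against S280A (adjusted p = 0.0444); the second call was lost in 5 of the 8 fits that left out a library. Atf3, an early stress-induced factor, lay between 38.6 and 56.4 CPM, and every pair of groups overlapped.

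The ER chaperones and folding enzymes (13 genes) did not move as a group. In S280D against S280A 1 of them rose and 4 fell, beside 21.3% and 18% of all genes tested, and their median was 0.053. In S280D against YFP 1 rose and 3 fell, beside 17.1% and 13.7% of all genes, with a median of -0.080. The promoters of several of them are shown here because they hold the elements through which ATF6 and XBP1 are known to act, and because the chaperone genes with such an element were not called alike. RefSeq promoter sequences (GRCr8; 250 bases before to 50 after each gene's start) were matched for 33 of the 39 members. The ER stress response element, CCAAT and CCACG separated by 9 bases, was found on either strand in 7 of the 33 (21.2%), against 22 of 33469 promoters in the table (0.0657%). The second such element, ATTGG and CCACG separated by 1 base, was found in 2 members (6.06%), against 17 in all (0.0508%). No promoter was counted under both, which gave 9 members (27.3%) and 39 promoters in all (0.117%) with either. The counts over all promoters include the members. The members were listed as genes of these responses, so the shares are a description and not a test. The copies in the 9 members, read in the orientation of the element with its fixed letters in capitals, were as follows.
Xbp1 element: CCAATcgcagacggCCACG
Hspa5 element: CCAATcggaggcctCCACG
Hsp90b1 element, farther from the start: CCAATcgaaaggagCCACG
Hsp90b1 element, nearer to the start: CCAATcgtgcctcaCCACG
Dnajc3 element: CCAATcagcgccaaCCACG
Calr element: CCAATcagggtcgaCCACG
Canx element: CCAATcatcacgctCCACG
Creld2 element: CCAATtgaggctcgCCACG
Dnajb11 second element: ATTGGcCCACG
Herpud1 second element: ATTGGgCCACG

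The 250 bases before the start are given for the 4 members with an element that were called lower in S280D against both YFP and S280A, 5′ to 3′ on the gene's strand with the element in capitals. For Calr the element lies on the opposite strand, so its letters appear reversed and complemented.
Xbp1 (GRCr8 chr14:84604373-84604622, plus strand): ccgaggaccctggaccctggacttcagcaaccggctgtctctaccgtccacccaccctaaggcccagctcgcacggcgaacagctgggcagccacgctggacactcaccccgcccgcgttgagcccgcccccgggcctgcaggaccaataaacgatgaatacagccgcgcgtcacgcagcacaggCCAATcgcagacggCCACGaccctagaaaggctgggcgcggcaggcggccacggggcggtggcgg
Hspa5 (GRCr8 chr3:38452766-38453015, plus strand): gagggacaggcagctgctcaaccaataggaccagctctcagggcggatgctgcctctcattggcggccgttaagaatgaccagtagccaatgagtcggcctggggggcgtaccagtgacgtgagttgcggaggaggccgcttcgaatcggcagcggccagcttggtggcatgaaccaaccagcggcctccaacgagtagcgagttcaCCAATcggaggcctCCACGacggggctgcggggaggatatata
Calr (GRCr8 chr19:40213117-40213366, plus strand): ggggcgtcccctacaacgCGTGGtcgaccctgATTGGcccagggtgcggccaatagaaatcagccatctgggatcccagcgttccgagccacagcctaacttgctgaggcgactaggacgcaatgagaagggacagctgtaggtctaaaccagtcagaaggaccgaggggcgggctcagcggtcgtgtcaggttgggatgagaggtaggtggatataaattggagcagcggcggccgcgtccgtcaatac
Herpud1 (GRCr8 chr19:10614708-10614957, minus strand): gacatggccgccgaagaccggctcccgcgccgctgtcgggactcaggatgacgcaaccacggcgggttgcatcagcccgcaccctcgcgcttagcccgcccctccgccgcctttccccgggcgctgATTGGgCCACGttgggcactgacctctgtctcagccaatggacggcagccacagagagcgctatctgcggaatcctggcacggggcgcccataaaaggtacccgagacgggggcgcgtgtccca

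Among the 9 members with either element, S280D against S280A called Xbp1, Hspa5, Calr and Herpud1 lower and 0 higher. Over all genes tested 18% were called lower there and 21.3% higher. The estimates of Hsp90b1, Dnajb11, Dnajc3 and Canx were positive (0.17, 0.09, 0.22 and 0.30) without a call. The part of the element in these values was not tested. Creld2, a secreted ER protein with the element, had an estimate of -0.25 ± 0.14 (adjusted p = 0.176). The other 3 motifs were searched on both strands. TGATGNAAT, a form of the C/EBP-ATF response element with its last base fixed as T, was found in 0 members and 1.09% of all promoters. Copies that end in another base were not counted. The Herpud1 and Chac1 promoters, for example, match this motif on the opposite strand at every base but the last. TGACGTGG (core of the unfolded protein response element) was found in 0 members and 0.595% of all promoters. TGACGTCA (cAMP response element) was found in 1 member, Ppp1r15a, and 1.83% of all. A match is a description of these letters within this window only.

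Calr, a lectin chaperone that binds calcium in the ER, stood at 1313 and 1272 CPM with YFP, 911 and 1040 with WT, 1252 and 1382 with S280A and 910 and 973 with S280D. The 2 pairs of groups did not overlap. It fell by 0.48 ± 0.12 in S280D against S280A (adjusted p = 0.0097), by 0.46 ± 0.12 in S280D against YFP (adjusted p = 0.0154) and by 0.41 ± 0.12 in WT against YFP (adjusted p = 0.0346), and was 0.43 ± 0.12 higher in S280A than in WT (adjusted p = 0.024). Canx, the membrane-bound relative of Calr, had positive estimates in the first 3 of these comparisons, 0.30, 0.26 and 0.21, and passed the test in none.

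Hspa5 encodes BiP, the main ER Hsp70 and the usual readout of the unfolded protein response. It was at 1192 and 1320 CPM with YFP, 1007 and 1050 with WT, 1140 and 1230 with S280A and 985 and 914 with S280D. The S280D and WT libraries were all below the YFP and S280A libraries. Hspa5 fell in S280D by 0.40 ± 0.11 against YFP (adjusted p = 0.0227) and by 0.32 ± 0.11 against S280A (adjusted p = 0.0448), and the second call was lost in 5 of the 8 fits that left out a library.

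Dnajb9, which encodes the BiP co-chaperone ERdj4, was the chaperone gene that rose. It stood at 5.21 and 7.87 CPM with YFP, 14.9 and 12.5 with WT, 7.51 and 5.48 with S280A and 14.8 and 13.6 with S280D. The WT and S280D libraries were all above the others, at a low level. Its log2 fold change was 1.13 ± 0.24 in S280D against S280A (adjusted p = 0.00519), 1.12 ± 0.23 in S280D against YFP (adjusted p = 0.00594), 1.06 ± 0.23 in WT against YFP (adjusted p = 0.0129) and -1.07 ± 0.24 in S280A against WT (adjusted p = 0.0124). The S280D against YFP call was kept with each library left out in turn.

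Manf, a secreted ER stress protein that protects heart cells, was at 79.5 and 86.2 CPM with YFP, 67.6 and 62.9 with WT, 73.8 and 75.9 with S280A and 58.9 and 57.0 with S280D. It fell in S280D by 0.52 ± 0.11 against YFP (adjusted p = 0.00769) and by 0.37 ± 0.11 against S280A (adjusted p = 0.0257). Sdf2l1, a small ER protein that works with BiP and ERdj proteins, stood at 5.13 and 6.37 CPM in S280D and at 8.43 and 9.26 CPM in S280A. Its fall of 0.63 ± 0.22 (adjusted p = 0.041) was called in 2 of the 8 fits that left out a library. The disulfide isomerases Pdia3, Pdia4 and Pdia6 and the chaperones Hsp90b1 and Dnajb11 were never called, with estimates between -0.21 and 0.19 over all 6 comparisons. Dnajc3, an inhibitor of eIF2 kinases and a co-chaperone, had its largest estimate in WT against YFP, 0.42 ± 0.13 (adjusted p = 0.0502).

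The genes of ER-associated degradation (4 genes), which return misfolded protein to the cytosol for destruction, split. Herpud1, a scaffold of the degradation complex, was at 179 and 181 CPM with YFP, 126 and 134 with WT, 162 and 210 with S280A and 129 and 139 with S280D. The WT and S280D libraries were below all others. It fell by 0.47 ± 0.13 in S280D against S280A (adjusted p = 0.0185), by 0.42 ± 0.13 in S280D against YFP (adjusted p = 0.0342) and by 0.47 ± 0.13 in WT against YFP (adjusted p = 0.0325), and was 0.51 ± 0.13 higher in S280A than in WT (adjusted p = 0.0201). Edem1, which directs misfolded glycoproteins to this route, rose in S280D against S280A by 0.52 ± 0.16 (adjusted p = 0.028) and was lower in S280A than in WT (-0.51 ± 0.17, adjusted p = 0.0423). Its levels were 26.5 and 19.7 CPM in S280A, 35.2 and 31.1 in S280D and 30.0 to 34.7 in the YFP and WT libraries, so S280A held the 2 lowest values. Without S280A replicate 2 Edem1 had 0.31 in S280D against S280A and -0.29 in S280A against WT, Herpud1 had -0.28 in S280D against S280A, and none of the 3 was called; under an offset for exon length both Edem1 calls were lost. The ubiquitin ligase Syvn1 fell in S280D against YFP by 0.41 ± 0.11 (adjusted p = 0.0204), while its partner Sel1l had an estimate of 0.22 ± 0.11 there (adjusted p = 0.147).

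Among the feedback and stress effectors (5 genes), S280D against S280A had 0 rises and 3 falls. All 5 estimates were negative, and the 2 groups did not overlap for any of the 5. Over all genes tested 18% were called lower there, and 37.7% were lower in S280D without overlap. Trib3, a pseudokinase that ATF4 and CHOP induce, was at 184 and 203 CPM in S280D and 240 and 318 in S280A, a fall of 0.53 ± 0.15 (adjusted p = 0.0184). Ppp1r15a (GADD34), the phosphatase subunit that reverses eIF2 phosphorylation, was at 217 and 230 CPM in S280D and 291 and 316 in S280A, a fall of 0.44 ± 0.13 (adjusted p = 0.0246). Sesn2, a leucine sensor that restrains mTORC1, stood at 287 and 300 CPM in S280D and 351 and 405 in S280A, a fall of 0.37 ± 0.11 (adjusted p = 0.0272). For all 3 both S280A libraries were above both S280D libraries. Trib3 also fell in S280D against YFP (-0.51 ± 0.15, adjusted p = 0.0264). Without S280A replicate 2 its estimate in S280D against S280A was -0.32 and was not called.

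Ddit4 (REDD1), an inhibitor of mTORC1, followed another order. It stood at 38.2 and 56.6 CPM with YFP, 25.7 and 28.1 with WT, 32.3 and 34.5 with S280A and 30.5 and 31.0 with S280D. Both YFP libraries were above the other 6. Ddit4 fell by 0.82 ± 0.18 in WT (adjusted p = 0.0117) and by 0.63 ± 0.17 in S280D (adjusted p = 0.0201) against YFP, and the estimate in S280A against YFP was -0.51 ± 0.18 (adjusted p = 0.361). Without YFP replicate 2, the highest library, the falls were 0.51 in WT, still called, and 0.32 in S280D, not called. Chac1, a glutathione-degrading enzyme, was not called, with its largest estimate in S280A against WT, 0.34 ± 0.13 (adjusted p = 0.0798).

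The amino acid and one-carbon enzymes (5 genes) all had negative estimates in S280D against S280A. The 2 groups did not overlap for any of the 5, beside 37.7% of all genes tested that were lower without overlap. Of the 5, 2 were called lower, beside 18% of all genes. Phgdh, the first enzyme of serine synthesis, was at 291 and 267 CPM with YFP, 207 and 204 with WT, 269 and 374 with S280A and 177 and 187 with S280D. The YFP and S280A libraries were all above the WT and S280D libraries. It fell in S280D by 0.82 ± 0.15 against S280A (adjusted p = 0.00284), a call kept with each library left out in turn, and by 0.62 ± 0.15 against YFP (adjusted p = 0.0105). In S280A it was 0.65 ± 0.15 above WT (adjusted p = 0.0133), and 0.42 above, not called, without S280A replicate 2.

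Shmt2, which passes the carbon of serine to folate in mitochondria, stood at 298 and 248 CPM with YFP, 212 and 240 with WT, 267 and 348 with S280A and 195 and 199 with S280D. The S280D libraries were the lowest. Shmt2 fell in S280D by 0.64 ± 0.15 against S280A (adjusted p = 0.00747) and by 0.47 ± 0.15 against YFP (adjusted p = 0.0328), and was 0.44 ± 0.15 higher in S280A than in WT (adjusted p = 0.0462), a value of 0.27 and not called without S280A replicate 2. Asns (asparagine synthetase), Psat1 (the second step of serine synthesis) and Mthfd2 (mitochondrial folate enzyme) had estimates of -0.30, -0.28 and -0.08 in S280D against S280A and were called in no comparison.

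The amino acid transporters (3 genes) moved in opposite directions, and the members of 1 exchanger were split. Slc7a11 encodes xCT, the light chain that exchanges cystine for glutamate, and Slc3a2 encodes the heavy chain that carries it to the membrane. Slc7a11 was at 33.1 and 35.3 CPM with YFP, 104 and 78.7 with WT, 44.7 and 35.5 with S280A and 127 and 86.1 with S280D. All 4 WT and S280D libraries were above all 4 others. It rose by 1.41 ± 0.20 in S280D against S280A (adjusted p = 0.00167), by 1.64 ± 0.20 in S280D against YFP (adjusted p = 7.54e-04) and by 1.42 ± 0.20 in WT against YFP (adjusted p = 0.00336), and was lower in S280A than in WT (-1.19 ± 0.20, adjusted p = 0.00772). The first 3 calls were kept with each library left out in turn, and the fourth was lost without WT replicate 1 or S280A replicate 2. With lane as a covariate the value in WT against YFP was 1.55 with an adjusted p of 0.0678, and with an offset for exon length the rise in S280D against S280A was 0.88 and the value in S280A against WT was -0.79, both still called.

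Slc3a2 stood at 1207 and 1127 CPM with YFP, 906 and 982 with WT, 1128 and 1429 with S280A and 833 and 927 with S280D. The split was the reverse of that of Slc7a11, with every WT and S280D value of Slc3a2 below every YFP and S280A value. It fell in S280D by 0.54 ± 0.13 against S280A (adjusted p = 0.0107) and by 0.41 ± 0.13 against YFP (adjusted p = 0.0406), and was 0.44 ± 0.13 higher in S280A than in WT (adjusted p = 0.0359), a value of 0.29 and not called without S280A replicate 2. Slc7a5 (LAT1), the leucine transporter that also pairs with Slc3a2, was at 654 and 581 CPM with YFP, 531 and 600 with WT, 610 and 761 with S280A and 458 and 497 with S280D. It fell in S280D against S280A by 0.52 ± 0.14 (adjusted p = 0.0124).

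**Figure D3:**
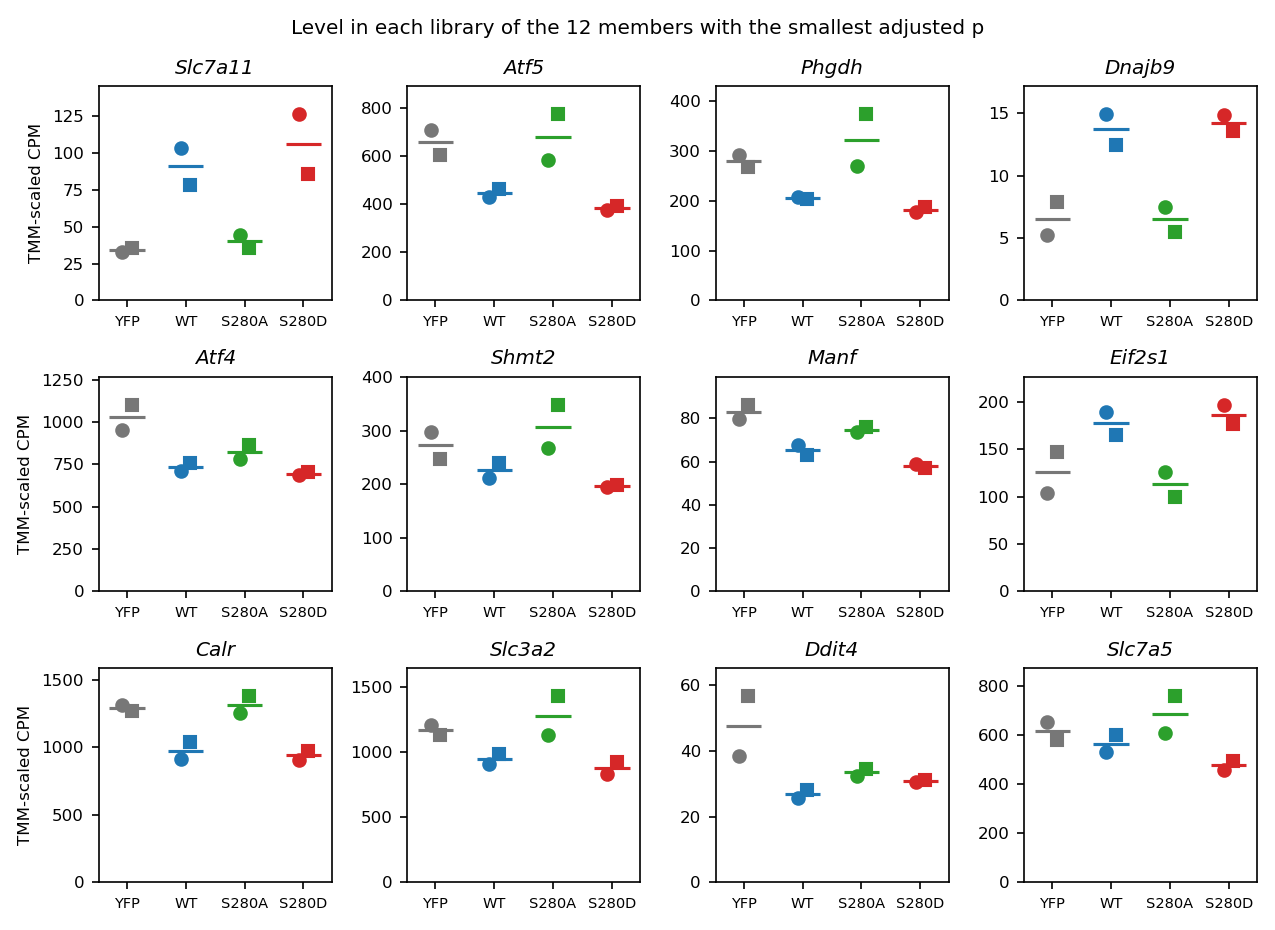
TMM-scaled CPM in each library (circle, replicate 1; square, replicate 2) of the 12 members with the smallest adjusted p over the 6 comparisons; the short line is the mean of the 2 libraries of a group. Slc7a11, Dnajb9 and Eif2s1 are higher in WT and S280D, and the other members shown are lower there than in YFP and S280A, apart from Slc7a5, whose WT libraries overlap YFP.

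Other genes of the same pathways came from 3 lists of 92 symbols, of which 89 matched and 88 were tested. In S280D against S280A 16 of the 88 rose and 31 fell, with a median of -0.25, beside 21.3% and 18% of all genes tested. In S280D against YFP 12 rose and 21 fell (17.1% and 13.7% of all genes). In WT against YFP 7 rose and 14 fell (12.2% and 7.45%), and in S280A against WT 22 were higher and 13 lower (10.1% and 15.9%). None of the 88 was called by edgeR in S280A against YFP or in S280D against WT, where 0.0403% of all genes were called in each. At an unadjusted p under 0.05 there were 14 and 3, beside 1439 and 606 of the 12407 genes tested. The list of other sensors and regulators (23 tested) had 6 rises and 9 falls in S280D against S280A, beside 21.3% and 18%. Eif2ak2, the kinase PKR that phosphorylates eIF2 alpha on binding double-stranded RNA, was at 255 and 313 CPM with YFP, 643 and 537 with WT, 286 and 232 with S280A and 835 and 641 with S280D, a rise of 1.51 ± 0.17 in S280D against S280A (adjusted p = 0.00159). It was the eIF2 kinase with the clearest difference in these libraries, with both S280D and both WT values above all others. Eif2s2, the beta subunit of eIF2, rose by 0.75 ± 0.15 (adjusted p = 0.00442) beside the rise of Eif2s1. Ppp1r15b, the constitutive counterpart of Ppp1r15a, rose by 0.67 ± 0.14 (adjusted p = 0.0054), and Eif2b2, a subunit of the eIF2 exchange factor, fell by 0.63 ± 0.13 (adjusted p = 0.0053).

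In S280D against S280A 21.3% of all genes tested were called higher and 18% lower. The list of other ER folding, translocation and degradation genes (34 tested) had 7 rises and 11 falls there. The smallest adjusted p values were those of 4 rises: Hspa13 (1.18 ± 0.20, adjusted p = 0.00232), an ER-associated Hsp70; Sec63 (0.76 ± 0.13, adjusted p = 0.00255) and Ssr3 (0.86 ± 0.16, adjusted p = 0.00329), both of the translocation channel; and Edem3 (1.20 ± 0.25, adjusted p = 0.0048), a relative of Edem1. The list of other amino acid and tRNA genes (31 tested) had 3 rises and 11 falls beside the same background. Pmaip1, which encodes the cell-death protein NOXA, was at 166 and 109 CPM in S280D and 56.1 and 41.0 in S280A (adjusted p = 0.00216 for the rise), and Xpot, the tRNA export factor, rose by 0.83 ± 0.18 (adjusted p = 0.00526). The tRNA synthetases Yars and Sars fell by 0.56 ± 0.13 (adjusted p = 0.00888) and 0.57 ± 0.14 (adjusted p = 0.00995). In WT and S280D against YFP, Stc2, a secreted stress protein, fell by 0.67 ± 0.16 (adjusted p = 0.0166) and 0.53 ± 0.16 (adjusted p = 0.0253), and the synthetase Cars fell by 0.47 ± 0.13 (adjusted p = 0.0296) and 0.51 ± 0.13 (adjusted p = 0.0143).

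Intron reads, which largely come from unspliced transcripts, were few, and 36 members were tested in them. In S280D against YFP Eif2s1 rose by 1.06 ± 0.26 (adjusted p = 0.0321), where 5.35% of 12988 genes were called. In S280D against S280A Slc3a2 fell by 1.00 ± 0.25 (adjusted p = 0.0396), where 4.54% were called. Slc3a2 stood at 436 to 1069 intron CPM over the libraries, far above every other member, of which Atf6 reached the most at 168. The source of these Slc3a2 reads was not tested. The intron background was 2.02% in WT against YFP and 0.0077% in S280A against WT, 0.0154% in S280A against YFP and 0% in S280D against WT, with 0 members called in each. No other member was called, with 9 at an unadjusted p under 0.05 in S280D against S280A. Of the 17 members with an exon call there that were tested in introns, 12 had the same sign in both. Over all 36 members tested in introns, 18 had the same sign there, and the Spearman correlation of the 2 estimates was 0.26. Slc7a11 had an intron estimate of 0.090 ± 0.38 (adjusted p = 0.917) beside its exon rise of 1.41, with 10.3 and 9.92 intron CPM in S280D and 8.11 and 11.1 in S280A. Against YFP, at 3.81 and 5.73 intron CPM, its intron estimates were positive without a call. They were 0.96 ± 0.42 in WT (adjusted p = 0.257), 0.96 ± 0.44 in S280A (adjusted p = 0.504) and 1.05 ± 0.40 in S280D (adjusted p = 0.133). Atf5 had an intron estimate of 0.79 ± 0.32 (adjusted p = 0.167) and Hspa5 one of 0.71 ± 0.39 (adjusted p = 0.307), both opposite in sign to the exon fall. Phgdh, at -0.74 ± 0.26 (adjusted p = 0.108), had the same sign.

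**Figure D4:**
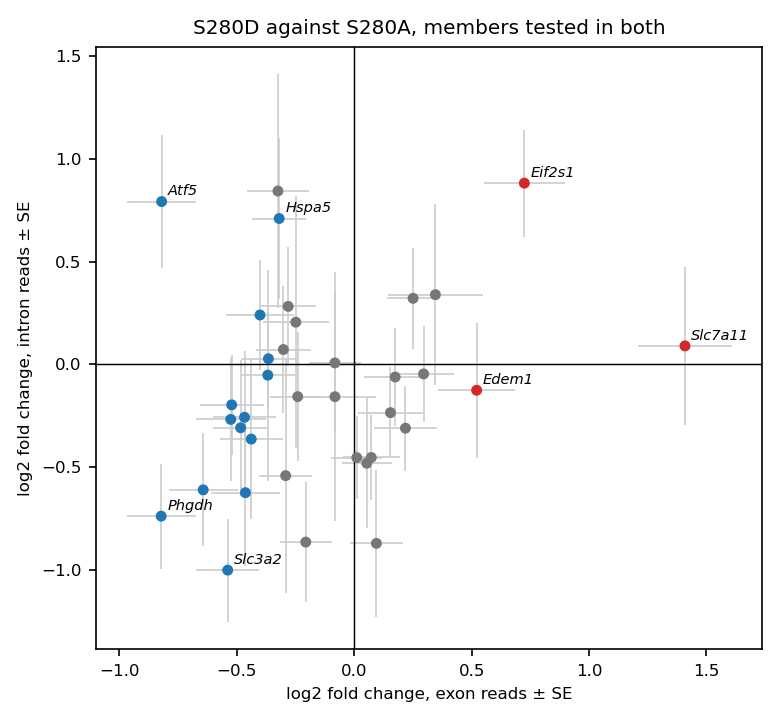
Log2 fold change in exon reads (x axis) and in intron reads (y axis) in S280D against S280A for the 36 members tested in both, with standard errors; red and blue mark members called higher and lower in exon reads. Eif2s1 lies at the upper right and Slc3a2 and Phgdh at the lower left, while Atf5 and Hspa5 lie above 0 in introns.

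The members' changes moved with exon length. Over the 39 members the Spearman correlation of log2 fold change with exon length was 0.40 in S280D against S280A, 0.53 in S280D against YFP and 0.53 in WT against YFP, and over all 12407 genes tested it was 0.24, 0.24 and 0.19; these are descriptions across genes that share the same libraries. The libraries themselves differed this way, since each library's deviation from the mean correlated with exon length at -0.25 and -0.066 for YFP, 0.13 and 0.16 for WT, -0.14 and -0.23 for S280A and 0.24 and 0.21 for S280D. With an offset for exon length the members' correlation was 0.25 in S280D against YFP, 0.30 in WT against YFP and 0.069 in S280D against S280A. In S280D against S280A 19 members were again called under it, where 43.1% of all genes were called. The offset moved the median over all genes there from -0.014 to -0.14, and the calls over all genes from 2641 higher and 2232 lower to 2154 higher and 3198 lower, so member values under it are to be read against that shift. Of the 19, Syvn1 (-0.64), Asns (-0.40) and Psat1 (-0.45) were not called without it. The all-gene median under the offset was -0.13 in S280D against YFP, -0.097 in WT against YFP and 0.11 in S280A against WT. Ddit3, Manf and Edem1 lost their calls in that comparison under the offset, and Slc7a11 went from 1.41 to 0.88 (adjusted p = 0.00211). Sesn2, called in both fits there, went from -0.37 to -0.62, and Syvn1 in S280D against YFP from -0.41 to -0.72. Dnajb9 (1.07), Eif2s1 (0.73), Atf5 (-0.77) and Phgdh kept theirs.

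**Figure D5:**
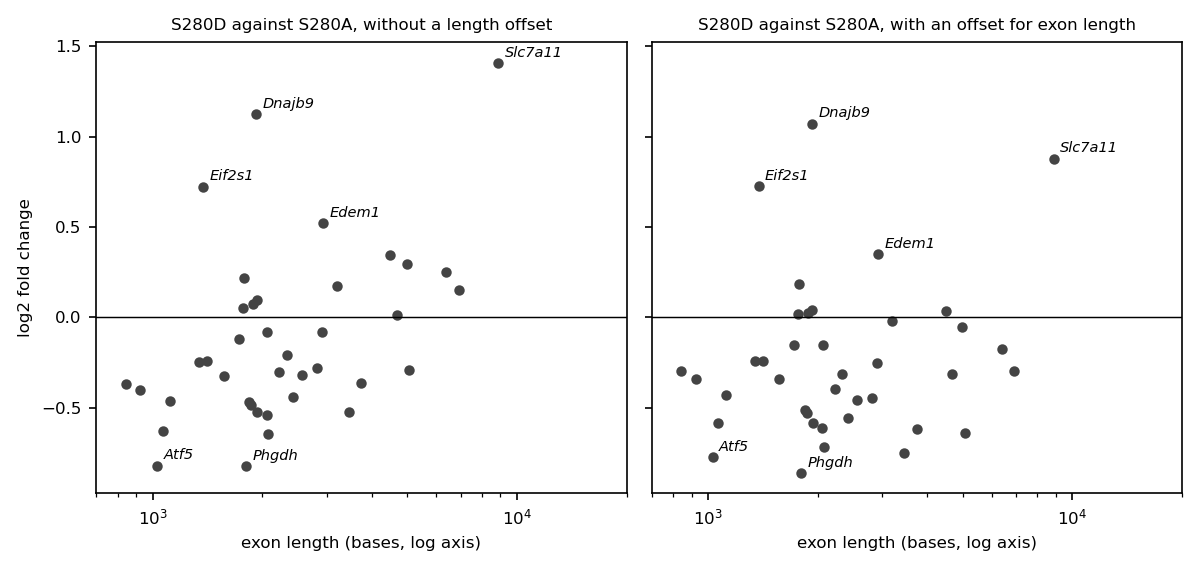
Log2 fold change of the 39 members in S280D against S280A (y axis) by exon length in bases (x axis, log scale), without (left) and with (right) an offset for exon length. Slc7a11, the longest at 8894 bases, moves from 1.41 to 0.88, while Dnajb9, Eif2s1 and Atf5 move little.

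In the authors' deposited table of comparisons, calls were taken at its adjusted p under 0.05. WT against YFP called 6 members (2121 genes in all) and S280D against YFP 12 (3041 in all). S280A against WT called 8 members (2636 in all) and S280D against S280A 12 (4005 in all). The number of genes the authors tested was not established, so these totals are given without a share. Whether members were called more often than other genes there was not tested. The authors' deposited table called 0 members in S280A against YFP (71 genes in all) and 0 in S280D against WT (50 in all). Every member called there was also called by edgeR with the same direction. For Slc7a11 the authors' deposited table gave a fold of 2.68 in S280D against S280A and 3.16 in S280D against YFP.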

How the data were processed

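Poly(A)-selected RNA of 8 H9C2 libraries was sequenced, per the labels' protocols, from a strand-specific paired-end kit; no source used here names the aligner or the strand setting of the counting, and the genome build was Rnor 6.0 per the submitters' processing notes. The deposited table gives per-gene counts of total exon reads, unique exon reads and intron reads, the authors' RPKM values, and the authors' signed fold changes (a ratio) and p-values for each comparison.

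Members and lists were chosen with earlier results of these data known. Total exon read counts were tested in R 4.3.3 with edgeR 4.0.16 (filterByExpr, TMM scaling, quasi-likelihood fit of all 8 libraries with 1 coefficient per group and 4 residual degrees of freedom, Benjamini-Hochberg adjustment over 12407 genes, threshold 0.05), after a test on simulated counts. Named were all 39 members; library levels were given for every sensor and transcription factor, the 12 members with the smallest adjusted p and others set beside them, and up to 4 called genes of each other list, most of them from S280D against S280A. Hspa5, Herpud1, Edem1, Trib3, Ppp1r15a, Sesn2, Sdf2l1 and Eif2ak2 levels were added after their values were seen. Alternatives included DESeq2 1.42.0. Protein sequences were not analysed here.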

Additional observations from a re-analysis of the deposited data

How the results depend on the processing

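The tests had 2 libraries a group, so the spread rests on 4 residual degrees of freedom. Of the 54 member calls over the 6 comparisons, 54 were kept on unique exon reads, 50 with the exon length offset, 48 with a replicate block, 18 with lane as a covariate and 6 in each of the 8 fits that left out a library. RLE scaling and the filter of 10 reads in 2 libraries kept the number of calls.

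Members called in WT against YFP (7, beside 19.6% of all genes) numbered 12 with no filter (15.2% of all genes in that fit), 12 with DESeq2 (24.2%), 14 on unique exon reads (22.3%) and 11 with the length offset (24.2%). With the lane covariate 0, 4 and 1 members were called in WT against YFP, S280D against YFP and S280A against WT (main counts 7, 17 and 11), where 0.0725%, 13.3% and 8% of all genes were called. On intron reads, with fewer reads, WT against YFP, S280D against YFP, S280A against WT and S280D against S280A called 0, 1, 0 and 1 (2.02%, 5.35%, 0.0077% and 4.54% of all genes). Against a fold of 1.5 they called 1, 1, 0 and 1 (1.09%, 4.56%, 0.161% and 5.91% of all genes). Leaving out 1 library gave 1 to 13, 0 to 1, 2 to 18, 0 to 14, 0 to 0 and 3 to 20 calls in WT against YFP, S280A against YFP, S280D against YFP, S280A against WT, S280D against WT and S280D against S280A. The shares in brackets are those over all genes in the same fit. WT against YFP called 3 members without YFP replicate 1 (5.98%), 1 member without WT replicate 1 (1.28%), 3 members without WT replicate 2 (7.42%), 11 members without S280A replicate 1 (22.3%) and 13 members without S280A replicate 2 (22.8%). S280A against YFP called 1 without YFP replicate 1 (1.02%). S280D against YFP called 7 without YFP replicate 1 (12.2%), 2 without S280D replicate 1 (7.24%) and 7 members without S280D replicate 2 (20.1%). S280A against WT called 0 without WT replicate 1 (0.0552%), 2 members without WT replicate 2 (10.2%), 0 members without S280A replicate 2 (0.0468%) and 7 without S280D replicate 2 (20.8%). S280D against S280A called 3 without S280A replicate 2 (9.78%) and 4 without S280D replicate 1 (10.5%). The causes were not tested.

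Called values changed sign on intron reads only: Atf4 (0.57) and Calr (0.026) in WT against YFP, Atf4 (0.085) and Calr (0.27) in S280D against YFP, Atf5 (-0.48) and Slc7a11 (0.0070) in S280A against WT, and Atf5 (0.79), Ddit3 (0.24), Hspa5 (0.71), Edem1 (-0.13) and Sesn2 (0.027) in S280D against S280A.

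Same-numbered replicates correlated in their deviations at -0.15 to 0.19 over the 6 pairs of groups, so the numbers were not taken as pairs. With the replicate block 8, 0, 17, 8, 0 and 16 members were called in the order given above. The shares over all genes in that fit were 17.3%, 0.0322%, 27.4%, 23%, 0.0242% and 37.2%. The calls lost were Ddit3, Hspa5 and Sdf2l1 in S280D against S280A and Edem1, Shmt2 and Trib3 in S280A against WT.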
